A study of Danio rerio with 15 samples.

Results

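The ROR and Rev-erb nuclear receptors are described here in whole zebrafish exposed to a chlorinated contaminant from 96 to 100 hours after fertilization. The 10 genes are roraa, rorab, rorb, rorca and rorcb, which encode ROR receptors, and nr1d1, nr1d2a, nr1d2b, nr1d4a and nr1d4b, which encode Rev-erb receptors. They were found by symbol among the 36351 entries of the authors' deposited table, where each of the 10 symbols has 1 entry. Their deposited gene names are those of RAR-related orphan receptors and of nuclear receptor subfamily 1 group D. The entry of a symbol was selected on its base mean, and the receptors were chosen by name with their fold changes in the same comparison known, so their fold changes and the authors' p-values are given as a description, and nothing is inferred from how many of them passed.

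The study exposed wild-type AB embryos through the water from 96 to 100 hours post fertilization (hpf), and RNA was taken from whole animals at the end of those 4 hours. The groups are DMSO (dimethyl sulfoxide at 0.01% v/v, the solvent alone), 50 nM of the compound labelled TCPM and 50 nM of the compound labelled TCPMOH, with 5 libraries in each of the 3 groups. Each library is a pool of 8 to 10 embryos, and the 5 pools of a group are spread over 3 experimental replicates that the labels do not assign. Values below compare TCPMOH with DMSO as the authors fitted them, and TCPM libraries were not analysed here. No value per library was used, because the deposited table gives for each gene a mean over libraries, a log2 fold change, its standard error (SE) and p-values. In whole animals, fewer cells of a type and less RNA per cell cannot be told apart.

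ROR and Rev-erb proteins bind the same DNA element and act on it in opposite ways. RORs recruit coactivators and raise transcription, while Rev-erbs recruit the NCoR-HDAC3 corepressor and lower it, with heme as their ligand. In mammals this pair of activities forms the second loop of the circadian clock, acting on the gene of the activator ARNTL, also called BMAL1, and the Rev-erb genes are in turn driven by ARNTL and CLOCK. Zebrafish tissues hold light-sensitive clocks of their own, and genome duplication in fish left several of these receptors as pairs.

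The header of the deposited table does not name the numerator of its fold change. Positive values are read here as higher with TCPMOH, and "higher" and "lower" would swap together under the opposite reading. Statements that members had opposite signs hold under either reading. The deposited folds also appear to be shrunken toward 0, which no source used states, so sizes are likely to be smaller than without shrinkage. Whether they lie below the true changes was not tested, and the members were chosen with their fold changes known.

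Within the ROR group rorca and rorcb carried the largest positive values, while the RORA pair lay near 0. Among the Rev-erbs nr1d1 had the opposite sign to rorca and rorcb, and the other Rev-erbs did not pass the threshold. At a DESeq2 adjusted p under 0.05 in the authors' deposited table, 3 of the 10 members were called, 2 higher and 1 lower, against 2.68% of the 19257 genes with an adjusted p. By direction the background was 0.758% called higher and 1.92% called lower. All 10 members had an adjusted p. Their median log2 fold change was 0.07, beside a median of -0.0016 over all tested genes.

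**Figure D1:**
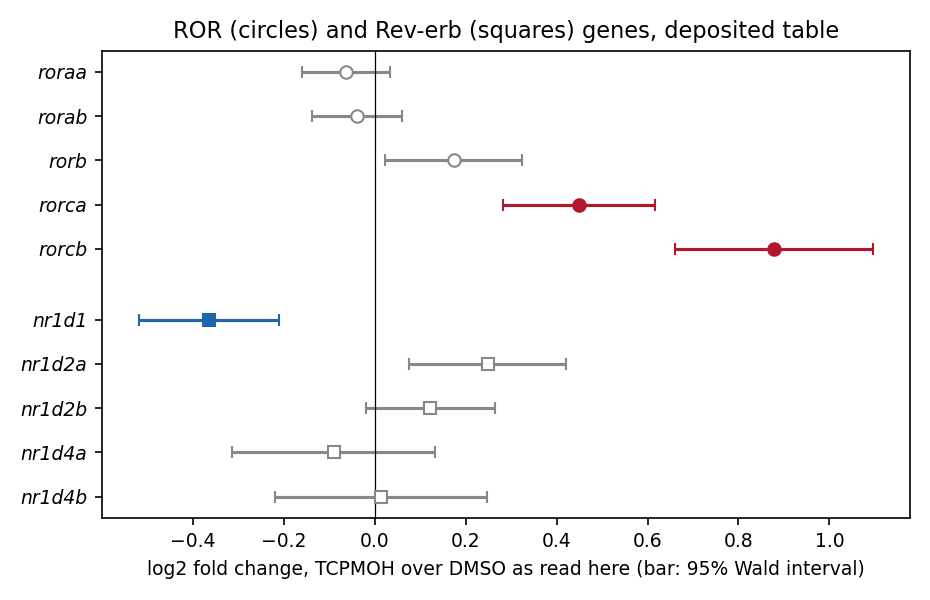
Log2 fold change of each of the 10 members (x axis, TCPMOH over DMSO as read here) with 95% Wald intervals from the deposited standard errors. Filled symbols mark genes with an adjusted p under 0.05. The intervals of rorca and rorcb lie above 0, from 0.28 upward, and that of nr1d1 ends at -0.21.

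The gene rorcb encodes a ROR receptor, a transcription activator, and is a duplicate copy of rorca. In the authors' deposited table its base mean, the mean normalized count over libraries, was 390.0 and the log2 fold change reached 0.88 (SE 0.111; DESeq2 adjusted p = 2.52e-12). That is 1.84-fold higher, or about 275 normalized counts with DMSO and 505 with TCPMOH when both group means are worked out from the deposited base mean and fold. Group means of this kind assume that the base mean averages the DMSO and TCPMOH libraries equally. If the folds are shrunken, the gap between them is smaller than it would be without shrinkage. Among genes with an adjusted p rorcb had the highest log2 fold change on the deposited scale, and also with the inferred shrinkage undone. The undoing corrects too little for the noisiest genes, whose SE falls again, so such genes could lie above rorcb without shrinkage. By the size of the Wald statistic rorcb stood at position 18. The deposited coordinates place it on chromosome 2 from 49410023 to 49454501 on the plus strand.

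The other copy, rorca, lies on chromosome 8 from 18881967 to 18899544 on the minus strand. Per the authors' deposited table the log2 fold change reached 0.45 (SE 0.0853; DESeq2 adjusted p = 3.76e-05), 1.36-fold higher at a base mean of 2108. The group means worked out from these deposited values were 1783 with DMSO and 2433 with TCPMOH. Its log2 fold change was position 23 from the top on the deposited scale and 60 with the inferred shrinkage undone, under the same limit. The fold change of rorcb exceeded that of rorca by 0.43 log2 units in the deposited table, and this difference was not tested, since the table gives no covariance between genes.

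The gene rorb encodes ROR beta, which in mammals is known from retina and brain. It did not pass, with a log2 fold change of 0.17 (SE 0.0771; DESeq2 adjusted p = 0.273) at a base mean of 935 in the authors' deposited table. Its 95% interval on the deposited scale ran from 0.02 to 0.32, so its unadjusted p of 0.0247 was under 0.05.

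The pair roraa and rorab encodes ROR alpha, known in the mouse for its role in cerebellar Purkinje cells. Neither passed. For roraa the authors' deposited table gave a log2 fold change of -0.06 (SE 0.0495; DESeq2 adjusted p = 0.624) at a base mean of 1573. For rorab the values in that deposited table were -0.04 (SE 0.0505; DESeq2 adjusted p = 0.793) at a base mean of 2634. These are the smallest standard errors of the 10 members. Their deposited 95% intervals ran from -0.16 to 0.03 for roraa and from -0.14 to 0.06 for rorab, neither of which reaches the deposited values of rorca or rorcb.

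The Rev-erb gene nr1d1 encodes Rev-erb alpha, the main repressor of the ARNTL gene in mammals. Per the authors' deposited table it had a log2 fold change of -0.36 (SE 0.0788; DESeq2 adjusted p = 5.63e-04) at a base mean of 3130, which is 1.29-fold lower. Worked out from the deposited values, its group means were 3523 with DMSO and 2736 with TCPMOH. The gene nr1d1 lies on chromosome 3 from 23488652 to 23496223 on the minus strand, within the deposited spans of znf1124 and znf1004 on the opposite strand. Those entries span 53252994 bp (znf1124) and 50770377 bp (znf1004), at base means of 238 and 23.4. No source used states whether counting used strand. The call of nr1d1 was lost when the Wald statistics were divided by their own spread over all genes (adjusted p = 0.0568 from the DESeq2 statistics), while rorca and rorcb kept theirs (0.0136 and 1.20e-06).

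Rev-erb beta is encoded by nr1d2a and nr1d2b, whose values had the opposite sign to that of nr1d1. The authors' deposited table put nr1d2a at 0.25 (SE 0.0883; DESeq2 adjusted p = 0.113) at a base mean of 2043. It passed when all fold changes were shifted so that both groups had equal summed values, at 0.30 (adjusted p = 0.0349 from the DESeq2 statistics). For nr1d2b the deposited values were 0.12 (SE 0.0719; DESeq2 adjusted p = 0.477) at a base mean of 4816. The deposited fold change of nr1d2a exceeded that of nr1d1 by 0.61 log2 units and that of nr1d2b by 0.13, without a test of either difference.

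The remaining pair, nr1d4a and nr1d4b, belongs to a Rev-erb group of fish and has the lowest base means of the 10. The authors' deposited table put nr1d4a at -0.09 (SE 0.114; DESeq2 adjusted p = 0.791) at a base mean of 69.6. The deposited fold change of nr1d4b was 0.01 (SE 0.119; DESeq2 adjusted p = 0.976) at a base mean of 58.0. At these means counting error alone would give an SE of 0.109 and 0.120 with 5 libraries a group and equal depth. Those values are without shrinkage, so the deposited SEs do not compare with them. With the inferred shrinkage undone the SEs were 0.164 for nr1d4a and 0.183 for nr1d4b. Their deposited 95% intervals ran from -0.31 to 0.13 and from -0.22 to 0.25. On that deposited scale both include the values of several uncalled members, and neither includes those of rorca, rorcb or nr1d1. With the inferred shrinkage undone nr1d4a stood at -0.13 and nr1d1 at -0.41. A 95% interval for nr1d4a from that value and its SE of 0.164 would include the value of nr1d1. A change of the size of that in nr1d1 is thus not excluded for nr1d4a. The smallest change that could be detected at these means was not computed.

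**Figure D2:**
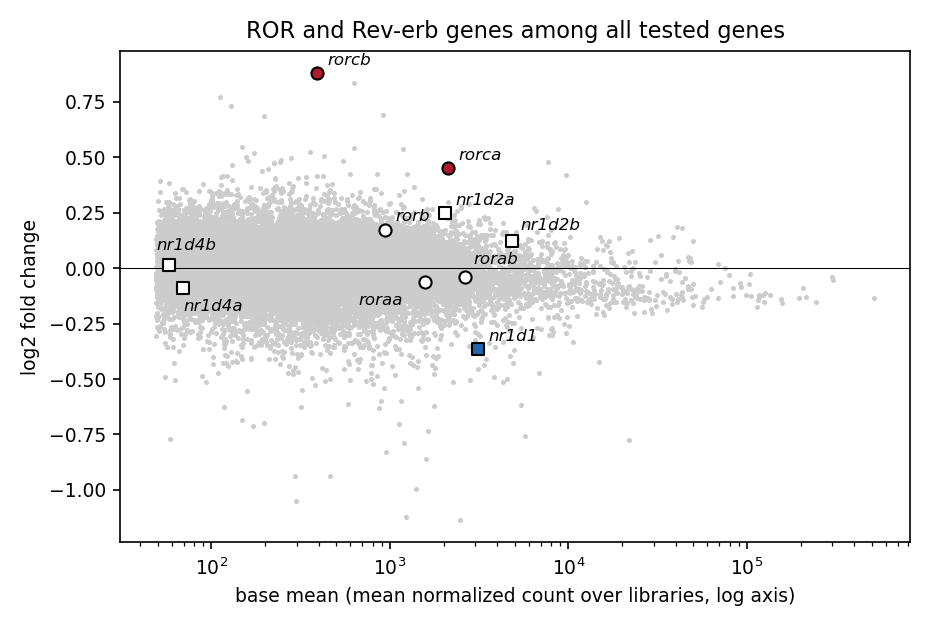
Log2 fold change (y axis) against base mean (x axis, log scale) for the 10 members, labelled, over the other tested genes in grey; circles are RORs, squares are Rev-erbs and filled symbols are called. At 0.88 rorcb is the topmost point of all, and nr1d4a and nr1d4b sit at the low end of the base means.

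The members also differed in how far their standard errors lay from those of other genes of like abundance. Each deposited SE was set beside those of the 500 tested genes nearest in base mean. For rorcb the SE was larger than in 92.8% of such genes, for nr1d2a in 83.8%, for rorca in 79.8% and for nr1d1 in 66.6%. At the other end stood roraa, above only 2.80% of such genes, and rorab, above 10.4%. Values of rorb (59.2%), nr1d2b (49.6%), nr1d4b (32.6%) and nr1d4a (23.0%) lay between. The 3 called members thus had SEs above the median of genes of their abundance, and the RORA pair had SEs near the bottom. At a given mean the SE grows with the spread between libraries, apart from the noisiest genes, where shrinkage can lower it again. The spread per library was not seen.

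**Figure D3:**
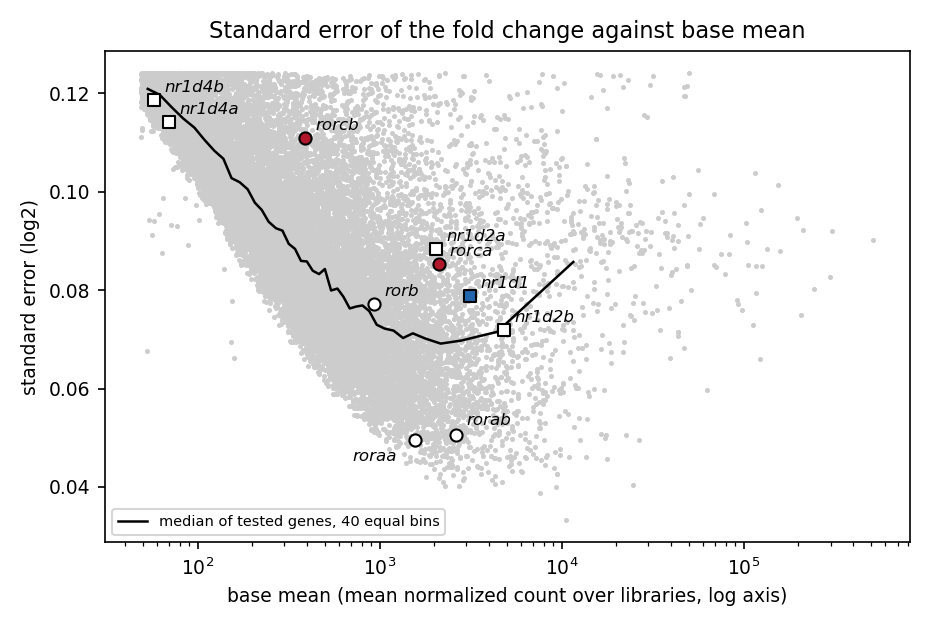
Deposited standard error of the log2 fold change (y axis) against base mean (x axis, log scale) for the 10 members over the other tested genes; the line joins medians of equal bins. The gene rorcb, at 0.111, lies well above the line, and roraa and rorab, at 0.0495 and 0.0505, lie well below it.

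Genes that act with these receptors were read from lists of clock genes, coregulators, ligand pathways and targets. The bHLH-PAS activators, whose genes are regulated by RORs and Rev-erbs in mammals, had positive values in all 6 tested members, with 2 called higher, 0 called lower and a median of 0.22. Over all tested genes 0.758% were called higher and 1.92% lower. The authors' deposited table put arntl1b at 0.48 (SE 0.0744; DESeq2 adjusted p = 4.95e-08) and arntl1a at 0.34 (SE 0.0792; DESeq2 adjusted p = 0.00241). Their partner genes did not pass, with deposited values of 0.25 for clocka (DESeq2 adjusted p = 0.300), 0.14 for clockb (0.503) and 0.05 for npas2 (0.822). The call of arntl1a was lost when the Wald statistics were divided by their own spread (adjusted p = 0.118 from the DESeq2 statistics). Among the called members, the ARNTL1 genes had the sign of rorca and rorcb and the opposite sign to nr1d1 in this comparison. The uncalled members did not divide by receptor type. As deposited, the Rev-erb genes nr1d2a, nr1d2b and nr1d4b shared the ARNTL1 sign, as did rorb. The ROR genes roraa and rorab had the opposite sign, as did nr1d4a.

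The repressor list of the clock, drawn up by gene family, had mostly the sign of nr1d1. Whether each listed gene represses the clock in zebrafish was not checked. Of 14 tested period, cryptochrome, bHLH and ciart (circadian associated repressor) genes, 9 were called lower, 3 higher, and the median was -0.35. Over all tested genes 1.92% were called lower and 0.758% higher. The smallest p-values in the authors' deposited table belonged to per2 (-0.62), bhlhe41 (-0.60), cry2 (-0.54) and ciartb (-0.39). The 3 called higher were cry1ba (0.30), cry1bb (0.28) and cry4 (0.27) in the authors' deposited table, named after their values were seen. Among 10 tested PAR bZIP and NFIL3 genes, whose products act at the D-box, 2 were called lower and 1 higher. These were tefa (-0.47), dbpb (-0.30) and nfil3-2 (0.35) in the authors' deposited table, with a list median of -0.05. Of 12 tested kinase and ubiquitin ligase genes of the clock only fbxl3a was called, at 0.36 in the authors' deposited table (SE 0.0732; DESeq2 adjusted p = 1.37e-04). Its product marks cryptochromes for breakdown in mammals. After the same division by the spread of the Wald statistics, 5 genes of the repressor list were called lower and 1 higher. The shares over all tested genes were then 0.483% and 0.145%. With that division nfil3-2 lost its call, while tefa and fbxl3a kept theirs. The call of dbpb was lost under all 5 alternatives that could change a call, and that of nfil3-2 also with Benjamini-Yekutieli adjustment. For cry4 the call was lost under 3 of those 5.

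**Figure D4:**
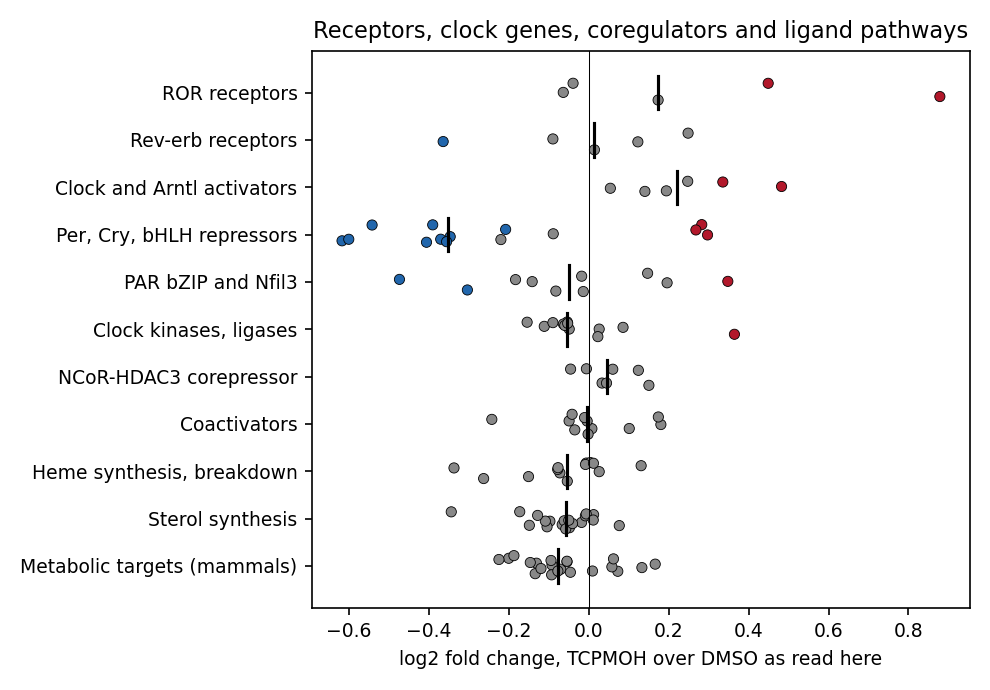
Log2 fold change (x axis, TCPMOH over DMSO as read here) of each tested gene, by list; vertical bars are list medians, red points were called higher and blue points lower. Activators lie to the right, with a median of 0.22, and most of the repressor list to the left, with a median of -0.35. The coregulator, heme and sterol lists have medians from -0.06 to 0.04 and no called gene.

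Coregulators and ligand pathways of the receptors had no called gene. Of 7 tested genes of the NCoR-HDAC3 corepressor, through which Rev-erbs act, the authors' DESeq2 test called 0, and 0 were at an unadjusted p under 0.05. The authors' deposited table put ncor1 at 0.03 (SE 0.0545) and hdac3 at 0.04 (SE 0.0725). Of 11 coactivator and coregulator genes 0 passed the authors' DESeq2 test, with 1 at an unadjusted p under 0.05. The deposited log2 fold change of ppargc1a in the authors' deposited table was -0.05 (SE 0.108) at a base mean of 499. The coactivator gene with an unadjusted p under 0.05 was ppargc1b. Its deposited value was -0.24 (SE 0.0830; DESeq2 adjusted p = 0.0922) at a base mean of 1914. With the trend on gene span removed, 1 coactivator gene was called lower. Heme synthesis and breakdown genes (13 tested, median -0.05) and sterol synthesis genes (19 tested, median -0.06) had 0 called by DESeq2 and 2 each with an unadjusted p under 0.05. Of the heme genes 9 were negative and 4 positive, and of the sterol genes 16 and 3. The lowest log2 fold change was -0.34 in each list. Heme binds Rev-erbs, and sterols are known as ROR ligands in mammals. The 21 tested metabolic genes named as targets of these receptors in mammals had 0 called by DESeq2, 2 with an unadjusted p under 0.05 and a median of -0.08. Over all tested genes 2.68% were called and 13.0% had an unadjusted p under 0.05. In lists of this size 0 called genes lies near that called share. Deposited SEs exceeded the median of genes of like base mean for 12 of 13 heme, 17 of 19 sterol and 16 of 21 metabolic genes. The same held for 1 of 7 corepressor and 4 of 11 coactivator genes.

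Markers of cell types in which these receptors are known from mammals were read beside the members. Of 16 T lymphocyte and thymus markers, 5 had an adjusted p and 0 were called by DESeq2, with 2 at an unadjusted p under 0.05. Base means in the authors' deposited table ran from 0 to 267, the highest being those of tcf7 (267) and rag1 (199), and 6 of the 16 were under 10, with il17a/f1 at 0. The log2 fold change of rag1 in the authors' deposited table was 0.35 (SE 0.117; DESeq2 adjusted p = 0.0847). After the shift to equal summed values, and with the trend on gene span removed, 1 marker of this list was called higher. Summed over that list, the group means worked out from the deposited values were 748 with DMSO and 827 with TCPMOH. Purkinje cell markers had 0 of 8 tested genes called by DESeq2, 0 with an unadjusted p under 0.05 and a median of 0.05. Of these 8 values 8 were positive and 0 negative. Photoreceptor markers, of a cell type in which ROR beta acts in the mouse, had 2 called higher and 1 lower of 14, 7 at an unadjusted p under 0.05, a median of 0.12, and summed group means of 160719 with DMSO and 171896 with TCPMOH. Called in the authors' deposited table were opn1lw2 (0.42), gnat1 (0.29) and pde6c (-0.30). Pineal markers had 0 of 6 tested genes called by DESeq2, 1 with an unadjusted p under 0.05 and a median of 0.11. Hepatocyte and muscle markers had 0 of 10 called by DESeq2 in each list, 0 with an unadjusted p under 0.05, and medians of -0.11 and -0.13. Hepatocyte values were negative in 10 and positive in 0, and muscle values in 9 and 1. Agreement of sign was thus also seen in lists without a called gene. Intestinal markers had 2 of 10 called lower, apoa4a (-0.41) and mep1a.2 (-0.34) in the authors' deposited table, with 5 at an unadjusted p under 0.05 and a median of -0.17. The call of mep1a.2 was lost under all 5 alternatives that could change a call, and that of apoa4a under 3 of them. Of these marker calls pde6c alone held when the Wald statistics were divided by their own spread. As deposited, 0.758% of all tested genes were called higher and 1.92% lower. Summed group means, DMSO first, were also higher with TCPMOH for Purkinje (8826 and 9131) and pineal markers (3900 and 4328). They were lower for hepatocyte (94550 and 87802), muscle (1.23e+06 and 1.14e+06) and intestinal markers (38820 and 34707). Of the summed photoreceptor base mean of 166307, rho held 49677 and opn1sw1 43481, and neither was called. The part of these cell types in the members' values was not tested.

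Fold changes of the members were also computed under other ways of processing. With the inferred shrinkage undone, a choice made after seeing the data, rorcb stood at 1.21, rorca at 0.52 and nr1d1 at -0.41. The correction is largest for genes with an SE near the largest in the table, 0.124, and rorcb is close to it. After the shift to equal summed values of 0.048 log2 units, rorcb was at 0.93, rorca at 0.50 and nr1d1 at -0.32. Undoing the shrinkage leaves the Wald statistics and so the calls as they are. Across the 5 alternatives that could change a call, rorca and rorcb were called in 5, nr1d1 in 4 and nr1d2a in 1. The shift gave 4 called members, against 2.98% of all tested genes, and the division by the spread gave 2, against 0.628%.

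**Figure D5:**
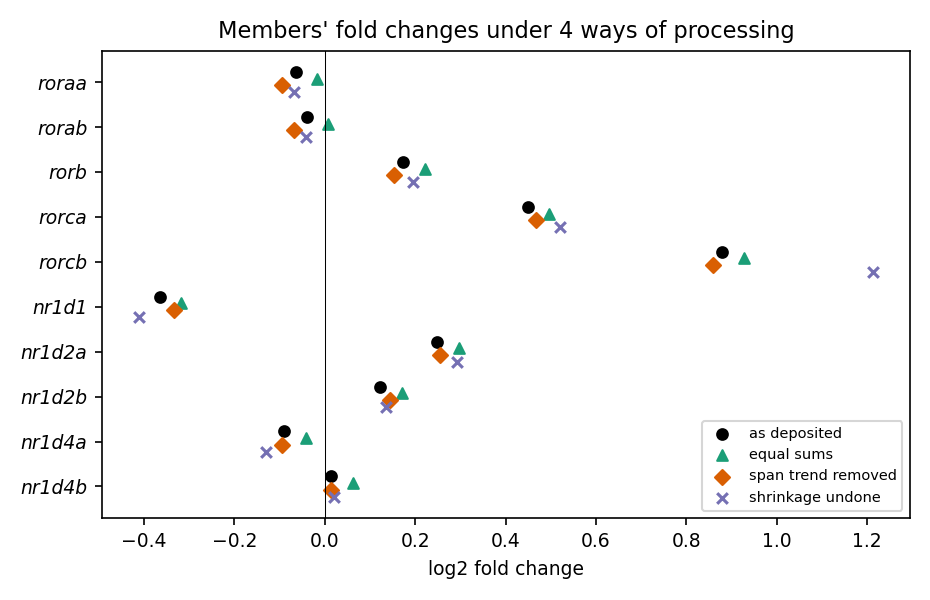
Log2 fold change (x axis) of each member as deposited, after the shift to equal summed values, after removal of the trend on gene span, and with the inferred shrinkage undone. The signs of rorca, rorcb and nr1d1 are the same in all of them, and rorcb moves most, from 0.88 to 1.21.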

How the data were processed

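Stranded mRNA libraries of whole zebrafish were sequenced, per the labels' protocols, and the submitters' processing notes name DESeq2, STAR, featureCounts, cutadapt and FastQC without versions. Per the file headers, gene models are those of a GTF numbered 4.3.2, paired with identifiers of Ensembl release 99. Coordinates are printed as deposited, their build being not given in the sources used. The authors deposited a base mean (a signal, the mean of normalized counts), a log2 fold change with its SE on the log2 scale, a Wald statistic (a score) and p-values with Benjamini-Hochberg adjustment. Depth per library is unknown here, the base means sum to 24808364, and 0 columns belong to a sample.

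The members and gene lists were chosen with earlier results of these data known. All 10 members are named, and from each list at most 4 called genes by smallest p, plus arntl1a, arntl1b, clocka, clockb, npas2, ncor1, hdac3 and ppargc1a. The called-higher repressors, the T lymphocyte markers, ppargc1b, rho and opn1sw1 were named after their values were seen. Some items that this rule names are not reported here. Called means an adjusted p below 0.05 by the authors' test. P-values measure only the spread between pools. Alternatives were computed over the whole table with Python 3.11.15, numpy 2.4.6, pandas 2.3.3, scipy 1.17.1 and statsmodels 0.14.6, and their code was tested on simulated data. All 10 Ensembl identifiers were in the gene name table, 6 of them with the same symbol. The others carried the symbols RORA for roraa, RORB for rorb, NR1D1 for nr1d1 and NR1D2 for nr1d2b. Sequences were not used here.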

Additional observations from a re-analysis of the deposited data

How the results depend on the processing

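The count of members called was 3 as deposited, without the low-mean filter, after removal of the span trend and with Benjamini-Yekutieli adjustment. Undoing the inferred shrinkage and taking every entry of a symbol could not change it, since the Wald statistics stay the same and each symbol has 1 entry. It was 4 after the shift to equal sums, where nr1d2a joined, and 2 under the empirical null, which divides the Wald statistics by their own spread, where the count called lower moved from 1 to 0 as nr1d1 lost its call (adjusted p = 0.0568 from the DESeq2 statistics, range 5.63e-04 to 0.0568 over the alternatives). The sign of rorab reversed with the shift to equal sums, from -0.04 to 0.0082, and rorab was called under none of the alternatives. Among 50 counts in the other lists that could change and were not 0 both as deposited and under the alternative, 27 stayed within 1.5 times their deposited value and 23 moved, and the causes were not tested. Over all genes 516 were called as deposited, 573 after the shift (355 higher and 218 lower, against 146 and 370), 121 under the empirical null and 216 with Benjamini-Yekutieli adjustment. No paired analysis was possible because the deposited table holds no values per library, and leaving out replicates was not run for the same reason. The planned form of undoing the shrinkage was not run, since the median SE fell to 0.0245 at base means of 0 to 1 from 0.123 at 20 to 50, a shape it does not have. Promoter motif counts were not run.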

Other observations

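The chromosomal neighbours of rorca and rorcb are, by their symbols, themselves pairs of copies. In the deposited coordinates rorcb lies between sema6ba and sh3gl1a, and rorca between sh3gl1b and sema6bb. None of these neighbours was called: the log2 fold changes in the authors' deposited table were -0.04 for sh3gl1a (DESeq2 adjusted p = 0.896), 0.0013 for sh3gl1b (0.995), 0.14 for sema6ba (0.682) and 0.11 for sema6bb (0.524). The distance between rorcb and sh3gl1a was 2948 bp, and that between rorca and sh3gl1b was 1568 bp. The nr1d4 pair lies near other nuclear receptor genes, with rarga 25160 bp from nr1d4a and rargb 122023 bp from nr1d4b, and thrb lies 107169 bp from nr1d2b. Of the 20 nearest tested genes on either side of the members, leaving out entries that span 1 Mb or more, 1 was called, namely faim2b beside nr1d4b (-0.33 in the authors' deposited table, DESeq2 adjusted p = 0.00688). Over all tested genes 2.68% were called, and 1 of 20 lies near that share. These neighbours were chosen after the members' values were seen.

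For 4 members an entry on the same strand overlaps the gene, each spanning at least 21933588 bp. Of 8 overlapping entries on either strand 4 had an adjusted p, of which DESeq2 called 0 and 0 had an unadjusted p under 0.05. The shares over all tested genes were 2.68% and 13.0%. The counting of reads shared between such entries is not given in the sources used.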
